A study of Lachancea kluyveri with 16 samples.

Results

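SPL2 (SAKL0E12144g) and GIT1 (SAKL0G07480g) are 2 phosphate-related genes of the budding yeast Lachancea kluyveri, measured here by 4 probes (2 for each gene) among 10620 gene probes for 5316 genes on the array. They were chosen by locus name, after earlier results of these arrays had shown both to be higher in glycerol medium and higher still without the transcription factor Sef1. Their levels in all 4 groups therefore chose them, and these are given as a description with no test. The locus names and the symbols are those given with the study, where symbols are those of orthologs in Saccharomyces cerevisiae. SAKL0E12144g is described there only as a conserved hypothetical protein, with SPL2 as its ortholog.

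The study asked which genes depend on Sef1, a zinc cluster transcription factor, in a yeast that branched off before the whole-genome duplication of the Saccharomyces lineage. The deletion strain was SkSef1KA1 (sef1Δ), in which a KanMX6 cassette replaced SEF1, and its parent JYL1897 (MATa ura3) was the wild type (WT), so that both strains carried ura3. Each strain was grown in YPGly, a rich medium with glycerol as the carbon source on which growth needs respiration, and in YPD, the same rich base with glucose. Overnight YPD cultures (28 °C) were diluted to 0.2 OD600 per ml in 1 of these media and harvested after 5.5 h at 30 °C. The groups, with 4 biological replicates and so 4 one-colour arrays each, were sef1Δ in YPGly, WT in YPGly, sef1Δ in YPD and WT in YPD. On glycerol the deletion strain was described by the study as growing slightly less well than its parent, and the part of growth in the values below was not tested. The phosphate content of the media was not measured either. Because cells were taken 5.5 h after leaving glucose, adaptation to glycerol and steady growth on it cannot be told apart.

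In S. cerevisiae, cells short of inorganic phosphate switch on the PHO regulon through the activator Pho4 and its partner Pho2. Inositol pyrophosphates made by kinases such as Kcs1 take part in sensing phosphate, and the regulon holds phosphate transporters, secreted acid phosphatases and the enzymes that build vacuolar polyphosphate. GIT1 encodes a plasma membrane permease that takes up glycerophosphoinositol and glycerophosphocholine, phosphodiesters that can serve as a source of phosphate, and SPL2 encodes a small protein that acts against low-affinity phosphate uptake when phosphate is scarce. All these roles are known from S. cerevisiae and were not examined in L. kluyveri here.

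All levels below are log2 of a probe's signal relative to the 75th percentile of its array, so that 0 stands for a probe as bright as that percentile, and a difference of 1 is a 2-fold difference in signal. Across the 16 arrays that percentile ran from 718 to 2410 units of processed signal, between 90.5% and 98.7% of gene probes were well above background by the scanner software's own flag, and no spot was saturated. Where spike-in scaling is named below, arrays were instead scaled to 6 spike-in control probes. The study's methods do not mention adding spike-in RNA, so whether those probes measured an added control is not known. Replicates 1 and 2 of each group lay on 1 slide and replicates 3 and 4 on the other, so each slide held all 4 groups. SEF1 itself (SAKL0F12342g) averaged -8.86 ± 0.64 in sef1Δ and -1.93 ± 0.50 in WT in YPD (SD, n = 4 each). None of the 4 sef1Δ arrays was well above background there. With each of them set to its array's lowest signal well above background, SEF1 was 28.9-fold lower in sef1Δ. Under other processing, SEF1 differed in YPD by -7.32 to -3.11 on the log2 scale. In YPGly, where 1 of the 4 sef1Δ arrays was well above background, it averaged -8.15 ± 1.60 in sef1Δ and -1.56 ± 0.12 in WT. The exact two-sided permutation test gave p = 0.0286 in each medium, the smallest that 4 arrays against 4 allow.

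SPL2 had its highest signal in sef1Δ on glycerol, an intermediate one in WT on glycerol and a very low one in both strains on glucose. With probe 1, the brighter of its probes and the one that stands for the gene below, the 4 sef1Δ arrays in YPGly read 2.55, 2.02, 2.59 and 2.79 (replicates 1 to 4), against 0.35, 0.43, 1.48 and 1.54 on the WT arrays in YPGly. Every sef1Δ array was above every WT array, with a gap of 0.47 between the lowest of sef1Δ and the highest of WT. In YPD the same probe read -5.60, -3.05, -5.69 and -5.52 in sef1Δ and -5.59, -3.21, -5.03 and -5.57 in WT. There the strains overlapped throughout, replicate 2 stood above the other arrays in both strains, and replicate 4 of WT was not well above background.

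GIT1 followed the same order of groups with a wider step between the strains. Its brighter probe, probe 2, read 0.37, 1.08, 0.58 and 1.16 in sef1Δ in YPGly, against -2.58, -1.13, -2.77 and -0.64 in WT in YPGly. The 2 groups were separated by 1.01, and the WT arrays spread over 2.13, with replicates 2 and 4 above replicates 1 and 3. In YPD it read -5.39, -4.57, -6.67 and -5.76 in sef1Δ and -5.54, -4.73, -6.43 and -5.81 in WT. The strains overlapped again, replicate 2 was the highest and replicate 3 the lowest array in both, and replicates 3 and 4 of WT were not well above background.

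**Figure D1:**
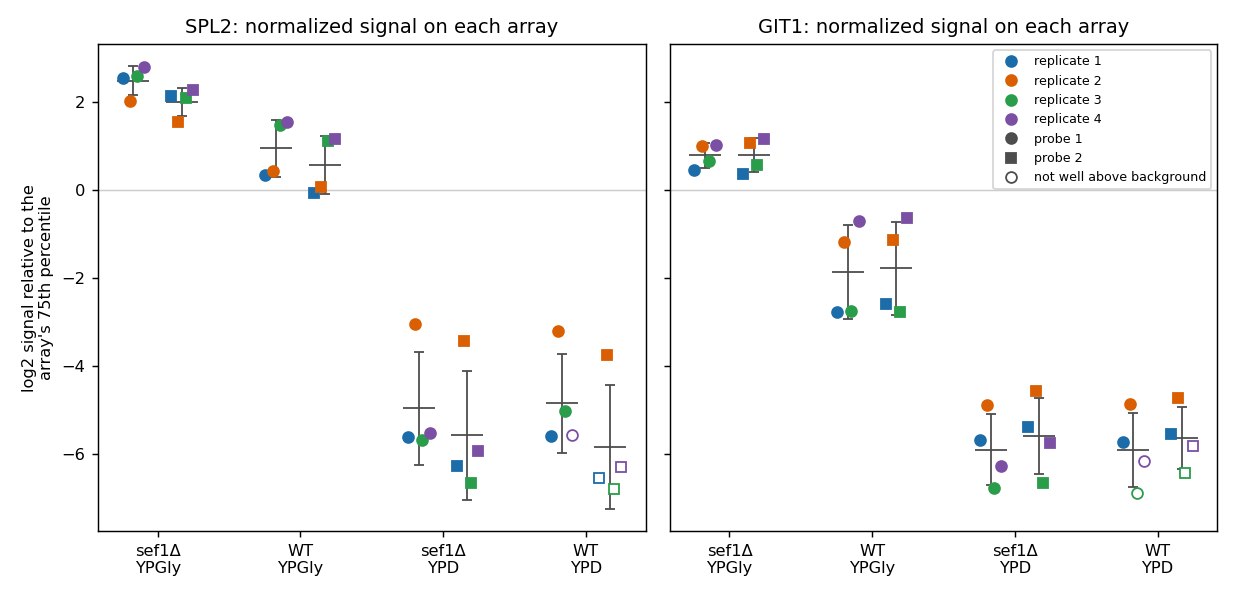
Log2 signal of SPL2 (left) and GIT1 (right) relative to the 75th percentile of each array, for both probes of each gene on all 16 arrays. Circles are probe 1, squares probe 2, colours give the replicate number, open symbols mark spots not well above background, and the grey marks are the mean and SD of 4 arrays; both genes stand highest in sef1Δ in YPGly, lower in WT in YPGly, and lowest in YPD, where the strains overlap.

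The second probe of each gene gave the same picture. SPL2 probe 2 was dimmer and averaged 2.01 ± 0.32 in sef1Δ and 0.56 ± 0.66 in WT in YPGly, and -5.57 ± 1.46 in sef1Δ and -5.85 ± 1.41 in WT in YPD (SD, n = 4 each). On YPGly arrays it lay 0.37 to 0.52 below probe 1, and on YPD arrays 0.38 to 1.76 below it. Only 1 of the 4 WT arrays in YPD, replicate 2, was well above background with this probe. GIT1 probe 1 averaged 0.79 ± 0.28 in sef1Δ and -1.85 ± 1.07 in WT in YPGly, and -5.91 ± 0.81 in sef1Δ and -5.91 ± 0.85 in WT in YPD (SD, n = 4 each). No spot of the 4 probes was flagged as an outlier or saturated, and none of the probe names lists a second gene that shares sequence.

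In linear terms the glucose signals were near the bottom of the scale. In YPD, SPL2 probe 1 ran from 19.9 to 117 units in sef1Δ and from 17.0 to 207 units in WT, and GIT1 probe 2 from 23.1 to 43.2 units in sef1Δ and from 9.83 to 72.6 units in WT. On glycerol the same probes reached 2909 to 14482 units (SPL2) and 1518 to 4349 units (GIT1) in sef1Δ. A medium difference thus set bright glycerol spots against dim YPD spots, while the strain difference on glycerol compared spots that were well above background on all 8 arrays.

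On glycerol, SPL2 averaged 2.49 ± 0.33 in sef1Δ and 0.95 ± 0.65 in WT (SD, n = 4 each), a log2 difference of 1.54 ± 0.31 (limma standard error), or 2.90-fold. GIT1 averaged 0.80 ± 0.38 in sef1Δ and -1.78 ± 1.06 in WT, a log2 difference of 2.58 ± 0.46, or 5.96-fold. Among the 4255 genes bright enough to be tested, the GIT1 difference was the 4th highest and the SPL2 difference the 20th. For both genes sef1Δ and WT did not overlap on glycerol, as was so, with sef1Δ higher, for 6.04% of the genes tested. As all 4 groups chose the 2 genes, nothing is read from this share or from those given for them below.

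Since no sef1Δ array overlapped a WT array on glycerol, the strain difference had to be positive at every replicate number. Only its size is described here. For SPL2, sef1Δ minus WT was 2.20, 1.59, 1.11 and 1.25 at replicates 1 to 4, and within the slides it averaged 1.89 (replicates 1 and 2) and 1.18 (replicates 3 and 4). For GIT1 it was 2.95, 2.21, 3.35 and 1.80 at replicates 1 to 4, with 2.58 within the first slide and 2.57 within the second. SPL2 thus had its lower WT values and its larger strain differences on 1 slide, whereas for GIT1 the slides gave like values.

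On glucose the strains differed by less than the spread between arrays for both genes. The log2 difference of sef1Δ minus WT was -0.11 ± 0.67 for SPL2 and 0.03 ± 0.45 for GIT1 (limma standard error), and single replicate numbers gave -0.66 to 0.16 for SPL2 and -0.23 to 0.16 for GIT1. With SPL2 probe 2 the sign turned, at 0.28, and all 4 replicate numbers were above 0, from 0.12 to 0.38. The spread of the YPD arrays was shared between strains: replicate 2 gave the highest values of both genes in both strains, so that differences taken within a replicate number varied less than the arrays themselves.

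The strain effect on glycerol exceeded that on glucose by 2.54 ± 0.70 for GIT1 and by 1.65 ± 0.81 for SPL2 on the log2 scale (limma standard error over all 16 arrays). These were the 4th and the 20th highest of the 4255 genes tested, of which 0.400% were called higher by the same measure. Leaving out single arrays moved the value between 2.19 and 2.92 for GIT1 and between 1.1 and 2.29 for SPL2.

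**Figure D2:**
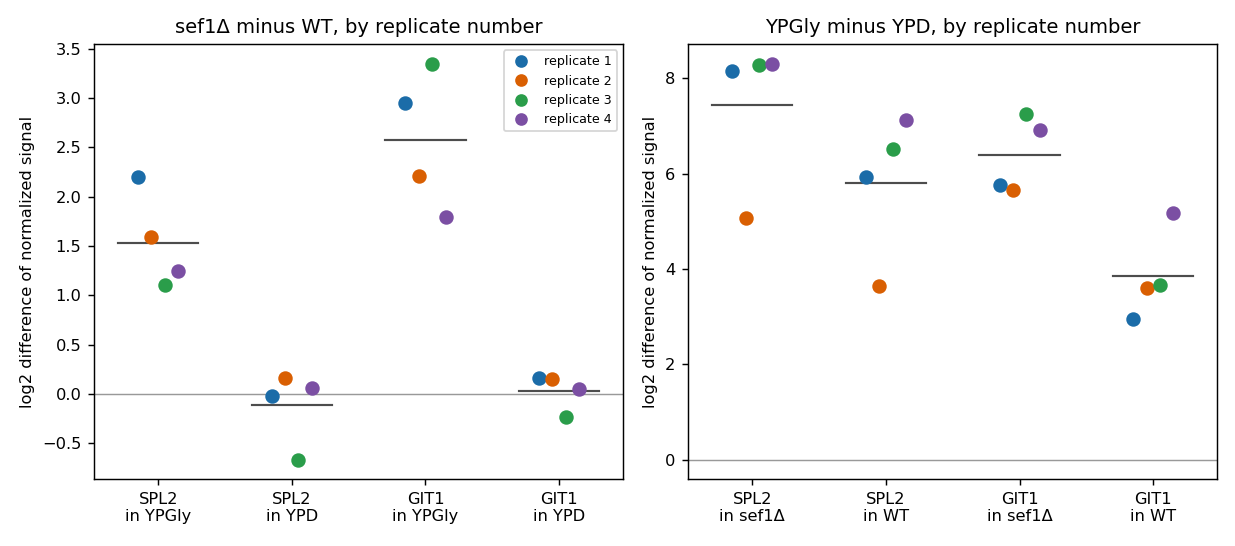
Log2 differences of SPL2 (probe 1) and GIT1 (probe 2) taken within each replicate number, sef1Δ minus WT in either medium (left) and YPGly minus YPD in either strain (right). Points are the 4 replicate numbers and lines their mean; all 8 strain differences lie above 1 in YPGly and scatter around 0 in YPD.

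Both genes were higher on glycerol than on glucose in each strain. SPL2 was higher on glycerol by 7.45 ± 0.53 on the log2 scale in sef1Δ (175-fold) and by 5.80 ± 0.51 in WT. GIT1 was higher by 6.39 ± 0.39 in sef1Δ (84.0-fold) and by 3.85 ± 0.50 in WT. The WT values rest on YPD arrays of which 1 of 4 for SPL2 and 2 of 4 for GIT1 were not well above background, and both genes passed the filter on dim genes only through their YPGly groups. No YPGly array overlapped a YPD array of the same strain for either gene, as for 18.4% of genes tested in sef1Δ and 18.5% in WT that were higher on glycerol, and 18.1% and 17.5% of genes were called higher. The comparisons between media and between strains share arrays, so these values are not independent of the strain differences above. As an alternative, background was removed from the raw spot signals by the normexp method, with an offset of 50 units added to every spot. The medium differences were then 6.26 in sef1Δ and 4.31 in WT for SPL2. For GIT1 they were 5.0 in sef1Δ and 2.12 in WT. The strain differences on glycerol, with that method, were 1.53 for SPL2 and 2.46 for GIT1, so that for GIT1 the strain difference on glycerol then exceeded the medium difference in WT. That offset is of the order of the YPD signals of these probes, and its part in the smaller medium differences was not tested.

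The order of levels was the same for both genes: sef1Δ in YPGly, then WT in YPGly, then both strains in YPD. The arrays did not overlap at either of the steps down from sef1Δ in YPGly to YPD, and the strains in YPD could not be ordered.

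Of the wider phosphate pathway, 22 other genes were placed on a list by their S. cerevisiae ortholog symbols, and 19 of them were bright enough to be tested. A gene was called at a limma Benjamini-Hochberg adjusted p of at most 0.05 over all genes tested and a change of at least 1.5-fold. In sef1Δ against WT on glycerol, 1 of the 19 was called higher and none lower (0.729% and 0.494% of all genes, from 52 calls that became 25 to 132 when single arrays of YPGly were left out), with a median log2 difference of 0.30 over the list and 0.03 over all genes. On glucose limma called none (median -0.09 over the list and 0.01 over all genes), none had an unadjusted p under 0.05, the methods' t-test called 0, and 3 genes, or 0.0705% of all tested, were called. With the replicate number as a block, 3 of the 19 were called higher on glycerol, against 3.15% of all genes. These were KCS1, PHO86 and SAKL0G04994g, and the last met the filter on dim genes only in sef1Δ in YPGly, so its call is not evidence. Of the list, 7 genes were known here only through study tables of genes called on expression, some of them on these arrays, so their direction is not independent evidence.

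KCS1 (SAKL0D04246g), whose S. cerevisiae ortholog makes inositol pyrophosphates from inositol hexakisphosphate, was the list gene called in the strain comparison. On glycerol it read -1.45, -1.15, -1.33 and -1.41 in sef1Δ, against -2.32, -2.90, -2.22 and -2.28 in WT, and in YPD -1.72, -1.83, -1.48 and -1.97 in sef1Δ, against -1.61, -1.70, -1.81 and -1.34 in WT. The strains were apart on glycerol, as for 6.04% of the genes tested with sef1Δ higher, and overlapped on glucose. The difference on glycerol was 1.09 ± 0.19 (limma adjusted p = 0.0225), and the difference of the 2 strain effects was 1.23 ± 0.24 (limma adjusted p = 0.0207). The glycerol call was lost, at adjusted p of 0.0502 to 0.0856, when replicate 1 or 3 of WT or replicate 1, 3 or 4 of sef1Δ in YPGly was left out, with the dimmer probe (1.04, adjusted p = 0.0526) and with spike-in scaling (1.09, adjusted p = 0.147). The call on the difference of effects was lost without replicate 1 of WT in YPD (adjusted p = 0.0525), without replicate 2 of sef1Δ in YPD (adjusted p = 0.0554), with the dimmer probe (adjusted p = 0.0938) and with spike-in scaling (0.85, adjusted p = 0.655). KCS1 differed from SPL2 and GIT1 between media: on glycerol it fell by 0.82 in WT (limma adjusted p = 0.00543), which spike-in scaling reduced to 0.14 without a call, and its difference of 0.41 in sef1Δ did not pass the test (adjusted p = 0.0599).

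Among the transporters, PHO84 (SAKL0D00814g), the high-affinity phosphate permease, moved most between media. It read 5.18, 5.43, 4.88 and 4.98 in sef1Δ and 4.15, 4.80, 4.35 and 4.64 in WT on glycerol, against 1.68, 2.49, -1.78 and 1.21 in sef1Δ and 1.48, 2.45, -0.54 and 0.43 in WT on glucose. Its YPD arrays had the pattern seen with GIT1, with replicate 2 the highest and replicate 3 the lowest in both strains. It rose on glycerol by 4.22 ± 0.74 in sef1Δ (limma adjusted p = 0.00124) and by 3.53 ± 0.52 in WT (adjusted p = 0.000367). All 4 sef1Δ arrays were above all 4 WT arrays on glycerol, as for 6.04% of the genes tested. The strain difference of 0.63 ± 0.20 did not pass the test (adjusted p = 0.184). With quantile normalization it was 0.92 and passed (adjusted p = 0.0424).

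SAKL0G04994g, a second gene with weak similarity to the GIT1 permease in the study's tables, read -1.69, -1.71, -1.70 and -1.38 in sef1Δ on glycerol, against -4.78, -2.30, -3.66 and -2.52 in WT on glycerol. The WT arrays spread widely, and all 4 lay below those of sef1Δ, as for 6.04% of the genes tested. On glucose it ran from -3.72 to -2.60 in sef1Δ and from -4.16 to -2.33 in WT, and its difference between media was 1.46 ± 0.23 in sef1Δ and -0.02 ± 0.56 in WT. The strain difference on glycerol was 1.70 ± 0.47, which did not pass the test (limma adjusted p = 0.13) and passed with the replicate number as a block (adjusted p = 0.0289) and with spike-in scaling. The gene met the filter on dim genes only in sef1Δ in YPGly (220.1 to 750 units, against 54.0 to 383 units over the other groups), so a higher value there was in part a condition of being tested, and its calls are not evidence of a difference.

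PHO87 (SAKL0C04224g), a low-affinity phosphate transporter, rose on glycerol in sef1Δ by 1.03 ± 0.30 (limma adjusted p = 0.019), and PIC2 (SAKL0F08360g) and MIR1 (SAKL0A10450g), carriers of phosphate into mitochondria, by 1.36 ± 0.36 (adjusted p = 0.012) and 1.14 ± 0.40 (adjusted p = 0.042). The MIR1 call held only without replicate 2 of sef1Δ in YPD or in YPGly when single arrays were left out, and the PHO87 call was lost without replicate 3 in YPD (0.83) or replicate 1 in YPGly (0.99). In WT their differences of 0.33 (PHO87), 0.81 (PIC2) and 0.55 (MIR1) did not pass. With spike-in scaling all of them were called higher in WT, at 1.01 (PHO87, adjusted p = 0.0125), 1.49 (PIC2, adjusted p = 0.000555) and 1.22 (MIR1, adjusted p = 0.00428). PHO91 (SAKL0A02134g), the vacuolar phosphate exporter, passed neither test between media, at 0.67 in sef1Δ and 0.48 in WT. With spike-in scaling it was called higher in both, at 0.96 in sef1Δ and 1.15 in WT. PHO86 (SAKL0C07106g), needed to bring Pho84 out of the endoplasmic reticulum, fell on glycerol in WT by 0.64 ± 0.19 (limma adjusted p = 0.02), a direction that turned to 0.03 when arrays were scaled to their spike-in controls, and its difference in sef1Δ was 0.08. The WT call was lost without replicate 1 or 3 of WT in YPD (adjusted p = 0.0655 and 0.0544). On glycerol it stood 0.62 ± 0.16 higher in sef1Δ than in WT (limma adjusted p = 0.11), which passed with the replicate number as a block (adjusted p = 0.0314). PHO88 (SAKL0B07700g), an endoplasmic reticulum membrane protein, fell on glycerol by 1.49 ± 0.18 in sef1Δ and by 1.18 ± 0.17 in WT, where spike-in scaling ended the call (-0.51, adjusted p = 0.216).

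Of the phosphatases, PHO11 (SAKL0B07678g), a secreted acid phosphatase, had the largest medium difference of the tested list genes in both strains, and it passed the filter on dim genes only through the 2 YPGly groups. It rose on glycerol by 5.22 ± 0.82 in sef1Δ (limma adjusted p = 0.00066) and by 4.27 ± 0.77 in WT (adjusted p = 0.0013). A higher value on glycerol was in part a condition of PHO11 being tested, so these p-values are not evidence of a difference. Its glucose arrays read -5.05, -1.39, -5.63 and -4.78 in sef1Δ and -4.78, -1.72, -5.44 and -4.29 in WT, so replicate 2 stood apart there as it did for SPL2. On glycerol it ran from -0.14 to 1.89 in sef1Δ and from -1.49 to 1.18 in WT, and the strain difference of 0.79 ± 0.59 did not pass the test (limma adjusted p = 0.63).

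PHO8 (SAKL0H11088g), the vacuolar alkaline phosphatase, rose on glycerol by 0.89 ± 0.21 in sef1Δ and by 0.95 ± 0.16 in WT. PHO3 (SAKL0G17028g), an acid phosphatase that S. cerevisiae does not raise in phosphate starvation, fell by 2.41 ± 0.46 in sef1Δ and by 2.40 ± 0.46 in WT. PHO13 (SAKL0E13948g), a phosphatase of small phosphorylated metabolites, fell by 1.11 ± 0.26 in sef1Δ and by 1.75 ± 0.25 in WT. PHM8 (SAKL0F01562g) passed in neither strain (0.17 in sef1Δ and 0.35 in WT), but was called higher in WT with spike-in scaling (1.02, adjusted p = 0.011). VTC4 (SAKL0G13904g) and VTC2 (SAKL0B02376g), subunits of the vacuolar polyphosphate polymerase complex, rose together. VTC4 rose by 1.16 ± 0.22 in sef1Δ and by 0.84 ± 0.16 in WT, and VTC2 by 1.13 ± 0.19 in sef1Δ and by 0.83 ± 0.16 in WT. None of these 6 genes was called between strains in either medium.

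**Figure D3:**
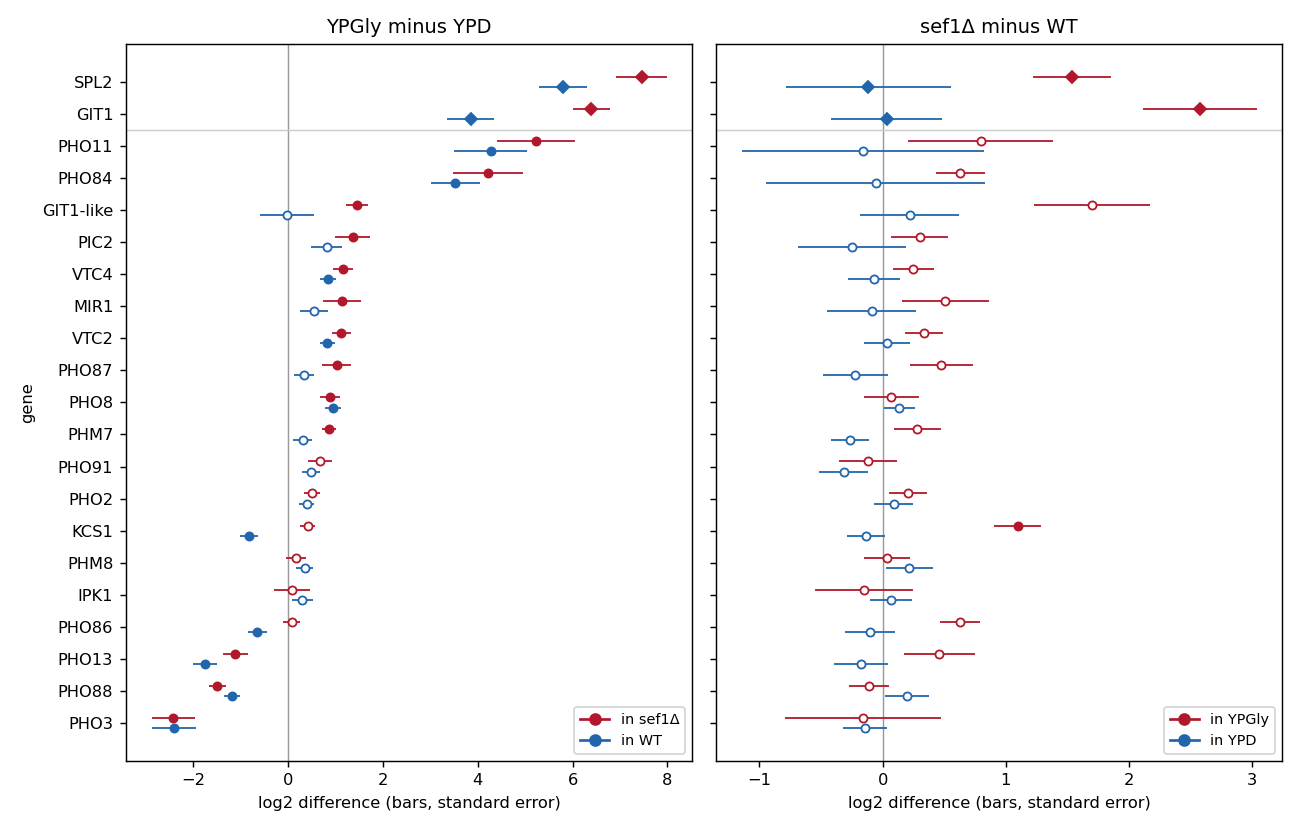
Log2 differences with limma standard errors for SPL2 and GIT1 (diamonds, not tested) and the 19 tested genes of the phosphate list (circles, filled where called), YPGly minus YPD in sef1Δ and WT (left) and sef1Δ minus WT in YPGly and YPD (right). SPL2, GIT1, PHO11 and PHO84 stand apart from the rest between media, and KCS1 alone of the list is called between strains.

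Between media, 10 of the 19 list genes were called higher and 3 lower in sef1Δ, and 5 higher and 5 lower in WT. The median log2 difference was 0.86 over the list and -0.11 over all genes in sef1Δ, and 0.35 over the list and -0.14 over all genes in WT. As 22.4% of all genes were called lower and 18.1% higher in sef1Δ, and 24.3% lower and 17.5% higher in WT, calls between media were common throughout. The split in WT turned on the scaling: with spike-in controls, 13 list genes were called higher and 2 lower in WT (12 and 3 in sef1Δ), as the median over all genes moved to 0.53 in WT (0.18 in sef1Δ). Of all 4255 genes tested, that scaling called 1497 higher and 179 lower in WT, and 986 higher and 473 lower in sef1Δ. Without the genes known only from tables of called genes, 13 remained, of which 5 were called higher and 2 lower in sef1Δ, and 2 higher and 4 lower in WT. The calls higher include PHO11 in both strains and SAKL0G04994g in sef1Δ, which passed the filter on dim genes only through glycerol groups. With spike-in scaling the calls higher in WT also include IPK1 (SAKL0G09218g), which passed that filter only in WT in YPGly.

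A second list held 15 genes of inositol supply and phospholipid synthesis, chosen because the substrate of the GIT1 permease carries inositol. Of these, 11 were tested. Between strains limma called 0 in either medium, with medians of 0.26 on glycerol and -0.11 on glucose. At an unadjusted p under 0.05 there was 1 on glycerol and 0 on glucose, and the methods' t-test called 0 in both. With the replicate number as a block 3 were called higher on glycerol, where 3.15% of all genes were. These 3 were INM2 (SAKL0G10516g), an inositol monophosphatase (0.78, adjusted p = 0.0408), and 2 genes with ITR1, a myo-inositol transporter, as ortholog, SAKL0C09350g (0.68, adjusted p = 0.0359) and SAKL0E06864g (0.86, adjusted p = 0.0115).

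Between media, 2 of the 11 were called higher and 1 lower in sef1Δ, and 1 higher and 3 lower in WT, where spike-in scaling gave 4 higher and 0 lower. Over all genes tested, 18.1% were called higher and 22.4% lower in sef1Δ, and 17.5% higher and 24.3% lower in WT. Spike-in scaling called 1497 of all 4255 genes higher and 179 lower in WT. Another gene with ITR1 as ortholog, SAKL0F13310g, rose on glycerol by 1.44 ± 0.39 in sef1Δ (limma adjusted p = 0.013) and by 1.33 ± 0.33 in WT (adjusted p = 0.0078), and INM2 rose by 1.09 ± 0.26 in sef1Δ (adjusted p = 0.0063). HNM1 (SAKL0A04730g), a choline permease, fell by 1.22 ± 0.23 in sef1Δ and by 0.97 ± 0.35 in WT, where the call held in 2 of 8 fits that each left out 1 array, those without replicate 3 or 4 of WT in YPGly, and was lost with spike-in scaling (-0.30, adjusted p = 0.522). PGC1 (SAKL0A04378g), a phospholipase of phosphatidylglycerol, fell by 0.78 ± 0.20 in WT, a call lost with spike-in scaling (-0.10, adjusted p = 0.824), and its difference of -0.35 in sef1Δ did not pass. EKI1 (SAKL0H15444g), an ethanolamine kinase, fell by 0.65 ± 0.17 in WT, a direction that turned to 0.03 with spike-in scaling and whose call was lost without replicate 3 in YPD (-0.57) or replicate 1 in YPGly (-0.56), and its difference of -0.46 in sef1Δ did not pass.

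The genes beside SPL2 and GIT1 by locus number were also measured. SAKL0E12166g, which follows SPL2 and has no symbol here, read -0.40, -0.54, 0.11 and 0.00 in sef1Δ on glycerol, against -1.62, -1.38, -1.23 and -0.83 in WT. On glucose it ran from -3.82 to -3.17 in sef1Δ and from -3.53 to -3.18 in WT. It thus had the same order of groups as SPL2, with tighter replicates. It rose on glycerol by 3.42 ± 0.21 in sef1Δ (limma adjusted p = 2e-06) and by 2.10 ± 0.19 in WT (adjusted p = 1.5e-05). The strain effect on glycerol exceeded that on glucose by 1.32 ± 0.28 (limma adjusted p = 0.042), whereas the strain difference on glycerol, 1.06 ± 0.22, did not pass (adjusted p = 0.057), and passed with the replicate number as a block (adjusted p = 0.00713). The first of these was called in 3 of the 16 fits that each left out 1 array, where its adjusted p ran from 0.0131 to 0.119, and it was lost with the other probe (1.03, adjusted p = 0.371), spike-in scaling (0.93, adjusted p = 0.645) and quantile normalization (1.30, adjusted p = 0.0694), being called in 7 of 12 alternatives. This gene too passed the filter on dim genes only through the 2 YPGly groups, so its p-values between media are not evidence of a difference.

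The other genes next to SPL2 were not called higher on glycerol, except ARO9 in WT with spike-in scaling (0.93, adjusted p = 0.0241). ARO9 (SAKL0E12188g), an aromatic aminotransferase that lies beyond SAKL0E12166g, differed by 0.24 ± 0.19 in sef1Δ and 0.25 ± 0.24 in WT between media. On the other side, AAH1 (SAKL0E12122g), adenine deaminase, fell on glycerol by 1.79 ± 0.42 in sef1Δ and by 2.12 ± 0.42 in WT, and YCK1 (SAKL0E12100g), a casein kinase, differed by -0.05 in sef1Δ and by -0.22 in WT. None of these 3 was called between strains.

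Around GIT1 no neighbour was called higher on glycerol. SAKL0G07458g, just before it, differed by -0.27 ± 0.17 in sef1Δ and by -0.47 ± 0.17 in WT, and SAKL0G07436g was too dim to be tested. With spike-in scaling the differences of SAKL0G07458g turned to 0.02 in sef1Δ and 0.21 in WT and that of SAKL0G07546g in WT to 0.25, none of them called, and the calls of SAKL0G07524g in WT (-0.79, adjusted p = 0.0568) and SAKL0G07546g in sef1Δ (-0.58, adjusted p = 0.182) given next were lost. Behind it, SAKL0G07524g fell by 1.72 ± 0.28 in sef1Δ and by 1.46 ± 0.24 in WT, and SAKL0G07546g fell by 0.87 ± 0.31 in sef1Δ and differed by -0.42 in WT. The last call held in 1 of 8 fits with single arrays left out, that without replicate 2 of sef1Δ in YPGly (-1.20). None was called between strains, with differences on glycerol of -0.48 to 0.05. SAKL0G07524g passed the filter on dim genes only through its YPD groups. A higher value on glucose was in part a condition of its being tested, so its p-values between media are not evidence of a difference.

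**Figure D4:**
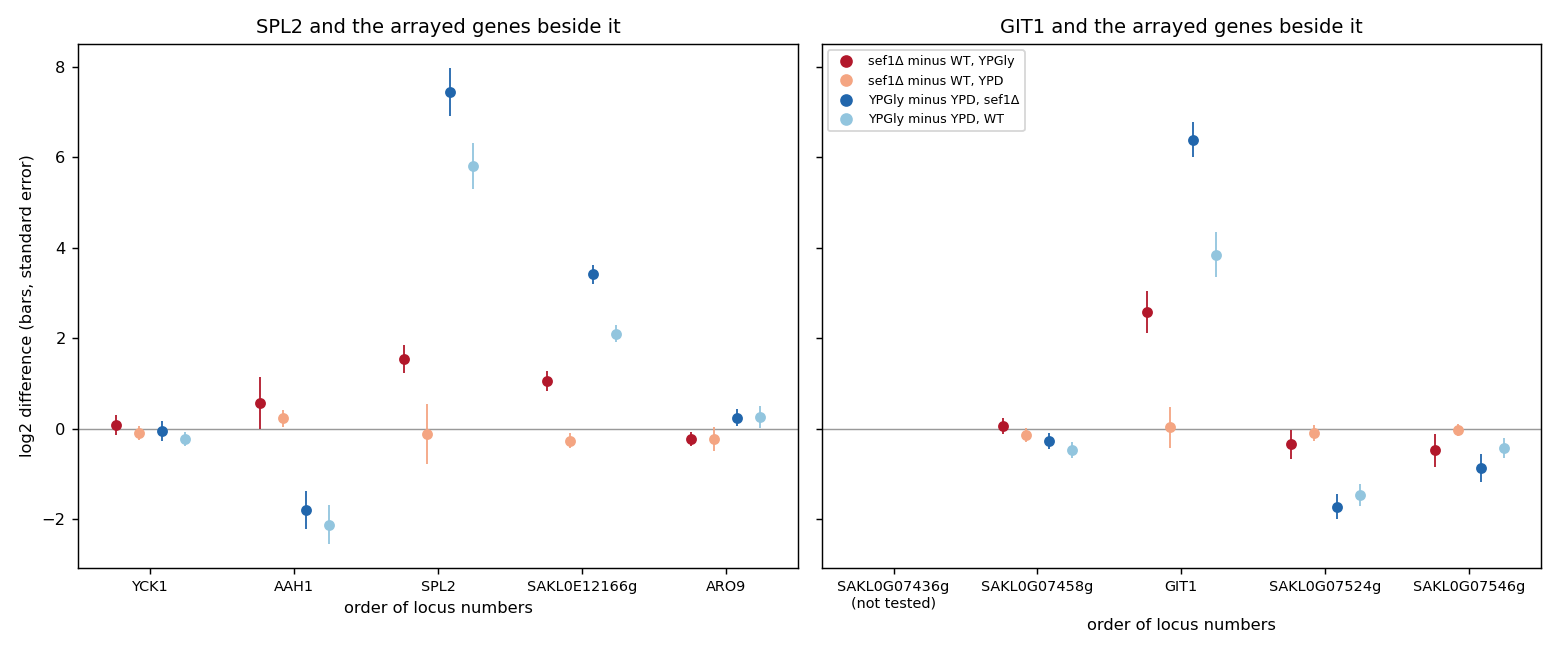
Log2 differences with limma standard errors for SPL2 (left), GIT1 (right) and up to 2 arrayed genes on either side of each, in the order of their locus numbers. SAKL0E12166g beside SPL2 has the same order of groups, and the tested neighbours of GIT1 lie below 0 between media on this scaling, where spike-in scaling turns 3 of the 6 values above 0.

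The genes with the most similar profiles were found by centring each tested gene's 16 values on their mean and taking the root mean square difference, a description with no test that mostly follows the step between media. For SPL2 the 5 nearest were ENA2 (SAKL0H13222g), a plasma membrane sodium pump, at 0.81, YIG1 (SAKL0A04554g) at 0.91, HSP30 (SAKL0B06050g), a stress-induced membrane protein, at 0.93, PXA1 (SAKL0H06908g), a subunit of the peroxisomal fatty acid transporter, at 0.94, and SAKL0E05258g at 0.95. The median over all tested genes was 3.53. Their differences of sef1Δ minus WT on glycerol, a contrast that entered the choice, ran from -0.52 (PXA1) to 0.82 (YIG1), against 1.54 for SPL2.

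For GIT1 the 5 nearest were PKP1 (SAKL0A01122g), a kinase of mitochondrial pyruvate dehydrogenase, at 0.75, FBP1 (SAKL0H03740g), the gluconeogenic fructose bisphosphatase, at 0.79, YLR312C (SAKL0H24310g) at 0.91, ADH5 (SAKL0H00374g), an alcohol dehydrogenase, at 0.94, and SAKL0H08558g at 0.95, against a median of 2.88. Their differences of sef1Δ minus WT on glycerol, a contrast that entered the choice, ran from 0.83 (YLR312C) to 1.40 (PKP1). SPL2 and GIT1 differed from each other by 1.12, which made GIT1 the 12th nearest gene to SPL2 and SPL2 the 15th nearest to GIT1. PHO84 was the 16th nearest to GIT1, at 1.14, and the 46th nearest to SPL2, at 1.67.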

How the data were processed

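Expression was measured on 16 one-colour Agilent arrays (4 groups of 4), grouped by the sample titles. The authors labelled cDNA with an Alexa dye and read the scans with Agilent Feature Extraction 10.5.1.1. The deposited scanner tables hold, per spot, the processed signal as an intensity after background subtraction, raw spot and background intensity, and flags, which are deposited codes. The deposited series matrix holds log2 values scaled by the authors to the 75th percentile. Scanner values were used, and the matrix as an alternative. No per-sample column lacked a sample.

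Here log2 processed signal minus log2 of the 75th percentile was taken per array, outlier spots were dropped (0 to 22 per array), the brighter probe stood for its gene, and genes with a signal of at least 200 on every array of 1 group were tested (4255 of 5316). limma 3.58.1 (R 4.3.3) was fitted without covariates to the 8 arrays of each comparison, and to all 16 for the difference of strain effects. Calls needed an adjusted p of at most 0.05 and 1.5-fold. The script was tested on simulated data. Scaling removes any change common to all transcripts, and the number of arrays limits precision.

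SPL2, GIT1 and the lists were chosen with earlier results of these data known, so no test is given for SPL2 and GIT1. From the lists, each gene called between strains, each transporter, phosphatase and polyphosphate gene and the 4 largest other WT medium calls are named, with 2 neighbours on each side and 5 nearest profiles. Symbols come from study tables held in part. Sequences and coordinates were not used here.

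The replicate numbers come from the sample titles. Same-numbered arrays of the 2 strains deviated together from their group means over the tested genes (correlations of 0.37 to 0.71 in YPD and 0.21 to 0.70 in YPGly). In YPD each sef1Δ array correlated best with the WT array of its own number. In YPGly this held for replicates 2 and 3, whereas replicates 1 and 4 of sef1Δ correlated best with replicate 3 of WT. The titles do not say what a shared number means, so pairing by number is an assumption of the replicate block. Between media same-numbered arrays did not deviate together in every pair (0.00 to 0.37 in WT, 0.09 to 0.40 in sef1Δ). Alternatives were another normalization (quantile, spike-in controls), background (normexp, offset 50), the matrix values, the other probe or the mean of both, outliers kept, no filter, 1 fit for all arrays, replicate, slide and array weights in the fit, a fold of 2, the methods' t-test, and each array left out. Values within slides and gene-by-gene values under these settings were chosen after seeing the data.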

Additional observations from a re-analysis of the deposited data

Results flagged for a closer look

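Among 240 sets of 4 arrays (each probe of SPL2 and GIT1 and each named gene in each group), 17 had 1 array set apart from the other 3 by more of the set's range than Dixon's critical value for 4 samples, and chance alone sets apart about 1 in 20. For SPL2 it was replicate 2 in YPD: in sef1Δ probe 1 read -3.05 there and -5.69 to -5.52 on the other arrays (gap over range 0.933), and in WT probe 2 read -3.75 and -6.79 to -6.30 (0.840). VTC4 was also highest on replicate 2 of WT in YPD, at 1.11 against 0.58 to 0.65 (0.874).

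In sef1Δ in YPGly, the array apart was replicate 4 for SAKL0G04994g, the GIT1-like gene (-1.38, others -1.71 to -1.69, 0.944), replicate 2 for PHO3 (-0.30, others -2.67 to -2.31, 0.849) and replicate 2 for PHO8 (0.99, others 1.72 to 1.85, 0.847). In WT in YPGly it was replicate 2 for KCS1 (-2.90, others -2.32 to -2.22, 0.864), replicate 4 for SIW14 (-3.56, others -2.5 to -2.33, 0.864) and replicate 4 for PHO86 (0.20, others -0.16 to -0.13, 0.909). In sef1Δ in YPD it was replicate 1 for PHO88 (2.99, others 2.51 to 2.53, 0.947), replicate 3 for PHM7 (0.59, others 0.88 to 0.93, 0.850), and replicate 4 for MIR1 (0.80, others 2.21 to 2.40, 0.876), SAKL0E12166g (-3.17, others -3.82 to -3.74, 0.880), SAKL0G07458g (0.51, others 0.05 to 0.12, 0.852), ADH5 (-1.66, others -2.76 to -2.61, 0.863) and SAKL0H08558g (-0.97, others -1.82 to -1.74, 0.905). In WT in YPD, SAKL0G07458g was highest on replicate 3 (0.63, others 0.21 to 0.27, 0.861).

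The strain effect differed between media by the test of the difference itself for 2 named genes. KCS1 differed by 1.23 (limma adjusted p = 0.0207) and SAKL0E12166g by 1.32 (limma adjusted p = 0.0419), both with a larger sef1Δ minus WT value on glycerol, where all 4 sef1Δ arrays were above all 4 WT arrays for both genes. Such a separation, with sef1Δ higher, was seen for 6.04% of the genes tested. Both calls were lost with spike-in scaling (0.85 for KCS1, 0.93 for SAKL0E12166g) and with the other probe (1.16 for KCS1, 1.03 for SAKL0E12166g), and that of SAKL0E12166g with quantile normalization (1.30).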

How the results depend on the processing

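Of 196 values of the SPL2 and GIT1 differences under alternatives, 188 moved by less than the SD between replicates, 8 moved more, and only strain differences on glucose, all smaller than that SD, changed sign. The 188 include the replicate block and the keeping of outlier spots, which could not move these values. Every group holds each replicate number, and the probes of SPL2 and GIT1 had no outlier spot. normexp with its offset of 50 lowered the medium differences to 6.26 (sef1Δ) and 4.31 (WT) for SPL2 and to 5.0 (sef1Δ) and 2.12 (WT) for GIT1. Within-slide values were 5.70 and 7.08 for GIT1 in sef1Δ and 4.79 and 6.81 for SPL2 in WT. Spike-in scaling moved the median over all genes to 0.53 between media in WT, against -0.14, and to 0.39 between strains on glucose, against 0.01. Over all genes it gave 1497 calls higher and 179 lower between media in WT, against 746 and 1036, and 22 and 22 between strains on glycerol, against 31 and 21. All calls between strains on glycerol numbered 52, and 117 with 1 fit for all arrays, 425 with array weights, 242 with the methods' t-test uncorrected and 27 with it adjusted. With 1 array left out they ran from 25 (without replicate 3 of sef1Δ in YPGly) to 132 (without its replicate 2), with 97 without replicate 4 of WT and 27 to 31 without any other. For the difference of effects they numbered 28, and 11 with spike-in scaling, 14 with the other probe, 57 with the replicate block and 209 with array weights, and from 20 to 54 with 1 array left out, the highest without replicate 4 of WT in YPGly.

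Phosphate list genes called between strains on glycerol numbered 1, and 2 with quantile normalization, 0 with the other probe, 4 with array weights, 4 with the methods' t-test uncorrected and 0 with it adjusted, and 0 to 1 with 1 array left out. Spike-in scaling also gave 1, SAKL0G04994g in place of KCS1. That gene met the filter on dim genes only in sef1Δ in YPGly, and it also counts among the calls with array weights and with the replicate block. For the difference of effects the 1 call became 0 with spike-in scaling or the other probe, 2 with array weights and 0 to 1 with 1 array left out. Between media in WT, a fold of 2 left 5 of 10. In the inositol list, calls between strains on glycerol were 1 with array weights and 0 to 1 with 1 array left out, and for the difference of effects 1 with array weights. Between media, a fold of 2 left 1 of 4 in WT, and no filter or array weights gave 5 in place of 3 in sef1Δ.

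With the replicate block, the phosphate and inositol lists had 3 calls each between strains on glycerol, out of 224 over all genes against 52 without it, and no other list count moved by over 1.5 times. The block could not change the SPL2 and GIT1 differences, as every group holds each replicate number. They stayed at 1.54 and 2.58 between strains on glycerol. The t-tests were not run for the difference of effects. Arrays not well above background limit the WT values in YPD. SEF1 stayed lower in sef1Δ in every setting tried, at -7.83 to -3.11 on the log2 scale.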
